A study of Mus musculus with 4 samples.

Results

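Keratins are the intermediate filament proteins of epithelial cells and of hair. An acidic type I keratin pairs with a basic type II keratin, and the pairs that a cell makes change with its layer and its stage of differentiation. In the mouse the type II genes, together with the type I gene Krt18, form a cluster on chromosome 15, and the other type I genes form a cluster on chromosome 11. H3K27me3, histone H3 trimethylated at its lysine 27, is laid down by Polycomb repressive complex 2 and is found on genes of other lineages that a cell keeps silent.

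The genes described here were the protein-coding genes of the RefSeq annotation of GRCm38.p6 (mm10) whose symbol is Krt followed by a digit. There were 53 of them among 21887 protein-coding genes, 26 on chromosome 15, 27 on chromosome 11 and 0 elsewhere. The chromosome 15 cluster runs from Krt80 to Krt18 (chr15:101348315-102032026), and the chromosome 11 cluster from Krt222 to Krt42 (chr11:99232761-100269951). A gene was taken as marked when a peak, that is a region of enrichment listed by the authors, lay in the gene or within 2 kb of it. The genes were selected on their names, as a subject chosen by the peak counts of an earlier look at both lists, so every count of keratin peaks below is a description, and no test was made of it.

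The peaks come from chromatin immunoprecipitation and sequencing of H3K27me3 in GL261, an established mouse glioblastoma line grown in serum, in irradiated cells (labelled IR) and in control cells (labelled Con). The labels state neither the dose nor the time after irradiation. Each condition had 1 H3K27me3 library and 1 input library. With 1 library per condition there is no replicate error to set a difference against, and the intervals given cover counting error only.

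The irradiated list held 16091 peaks and the control list 9866, a ratio of 1.63. The median fold enrichment at the summit, the authors' value, was 3.67 in the irradiated list and 3.43 in the control list. The deposited fold and p were solved for the reads behind a peak. Their median was 11 ChIP reads at a summit in the irradiated list and 10 in the control list. Peaks with a q of at most 0.05 made up 15.2% of the irradiated and 6.84% of the control list, so most peaks were weak, and to be marked means here to have a peak on the list, whatever its strength. The strongest peak of a gene is the one with the lowest p.

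On chromosome 15, 12 of 26 keratin genes were marked in the irradiated list (46.2%, 95% exact interval 26.6 to 66.6) and 4 in the control list (15.4%, 4.36 to 34.9). Among all protein-coding genes the shares were 8.20% in the irradiated list and 6.05% in the control list, and among those of chromosome 15 they were 20.2% and 17.5%. All 4 genes marked in the control list, Krt72, Krt73, Krt77 and Krt76, were marked in the irradiated list too. The same held for 96 of the 136 genes of chromosome 15 marked in the control list, and for 803 of 1325 over all chromosomes. A peak in both lists was thus found for 4 of 26 keratin genes (15.4%), against 3.67% of all genes and 12.4% of those of chromosome 15. Another 8 were marked in the irradiated list alone and 0 in the control list alone, against 7.86% and 5.15% of the chromosome. The 8 were Krt7, Krt88, Krt84, Krt90, Krt2, Krt1, Krt4 and Krt78. The remaining 14 had no peak in either list. With a q of at most 0.05, 4 keratin genes of chromosome 15 were left in the irradiated list and 0 in the control list, against 8.63% and 3.35% of the genes of the chromosome.

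On chromosome 11, 7 of 27 keratin genes were marked in the irradiated list (25.9%, 11.1 to 46.3) and 4 in the control list (14.8%, 4.19 to 33.7). The shares over all genes of this chromosome were 13.1% in the irradiated and 8.58% in the control list. Krt26, Krt23 and Krt33a were marked in both lists, Krt28, Krt32, Krt13 and Krt9 in the irradiated list alone, and Krt24 in the control list alone. Over the genes of the chromosome these shares were 6.15%, 6.96% and 2.42%. The remaining 19 had no peak. With a q of at most 0.05 there were 2 in the irradiated list and 0 in the control list, against 4.16% and 0.808% of the genes of the chromosome. The keratin genes are short, with a median length of 8032 bp on chromosome 15 and 6466 bp on chromosome 11, where all protein-coding genes of these chromosomes had medians of 18194 and 14265 bp, so their regions offer less room for a peak.

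**Figure D1:**
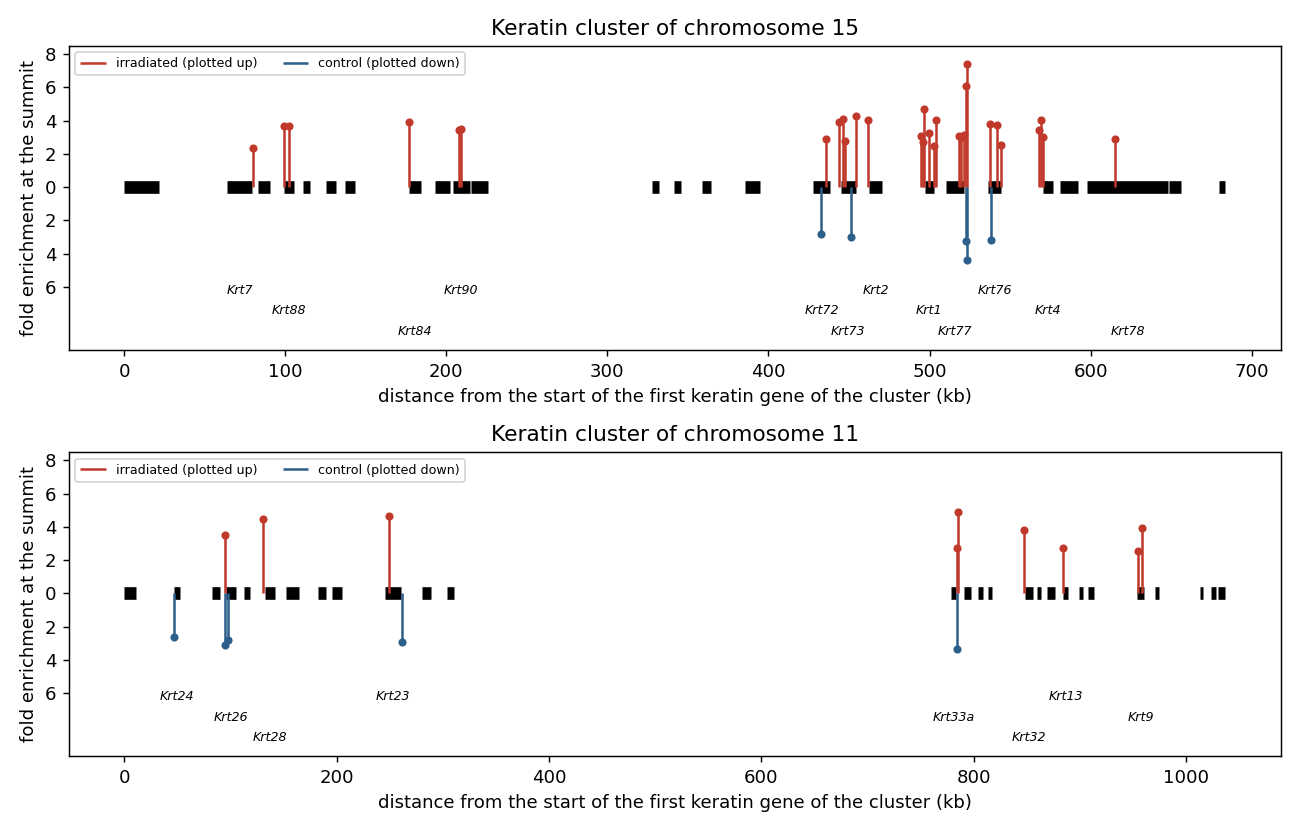
Position and fold enrichment of the H3K27me3 peaks in or within 2 kb of keratin genes, by distance from the start of the first keratin gene of each cluster in kb. Black boxes are the keratin genes, red stems point up for irradiated peaks and blue stems point down for control peaks, each as high as its fold, and names are given for marked genes. The highest stem, 7.41, is an irradiated peak upstream of Krt77, with a control peak of 4.36 opposite it.

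Promoters are shown for 4 genes of the chromosome 15 cluster. Krt77 and Krt76 are the only keratin genes with an annotated promoter window that had a peak over it, in the irradiated list. They were 2 of the 16 keratin genes of chromosome 15 with such a window (12.5%), with 0 in the control list, where 1.90% of the genes of the chromosome with a window had a peak over it in the irradiated and 0.474% in the control list. Both of these promoter peaks were weak. The one of Krt76 had 15 reads over a background of 2.7, a fold of 2.52 (q = 0.537). The one of Krt77 had 16 reads over a background of 2.16, a fold of 3.12 (q = 0.336). Krt8 and Krt18, the pair of simple epithelia, had no peak in either list. Each window runs from 250 bases before to 50 bases after the start of transcription, from RefSeq on GRCm38.p6, 5′ to 3′ in the direction of the gene. Capitals mark CpG dinucleotides (CG) and the TATA box letters TATAAA on either strand. The windows lie at chr15:101869656-101869955 (minus strand) for Krt77, chr15:101892871-101893170 (minus) for Krt76, chr15:102004293-102004592 (minus) for Krt8 and chr15:102027966-102028265 (plus) for Krt18.
Krt77: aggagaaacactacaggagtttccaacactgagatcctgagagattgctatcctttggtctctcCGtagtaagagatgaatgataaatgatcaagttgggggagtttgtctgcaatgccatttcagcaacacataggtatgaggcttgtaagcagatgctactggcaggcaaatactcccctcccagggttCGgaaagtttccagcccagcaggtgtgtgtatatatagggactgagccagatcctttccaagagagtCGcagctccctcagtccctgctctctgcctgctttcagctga
Krt76: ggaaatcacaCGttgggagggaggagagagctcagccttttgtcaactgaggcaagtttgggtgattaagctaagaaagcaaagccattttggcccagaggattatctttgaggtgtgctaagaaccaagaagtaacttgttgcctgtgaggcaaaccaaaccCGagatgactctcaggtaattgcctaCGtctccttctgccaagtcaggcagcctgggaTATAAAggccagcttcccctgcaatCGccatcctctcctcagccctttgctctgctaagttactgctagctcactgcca
Krt8: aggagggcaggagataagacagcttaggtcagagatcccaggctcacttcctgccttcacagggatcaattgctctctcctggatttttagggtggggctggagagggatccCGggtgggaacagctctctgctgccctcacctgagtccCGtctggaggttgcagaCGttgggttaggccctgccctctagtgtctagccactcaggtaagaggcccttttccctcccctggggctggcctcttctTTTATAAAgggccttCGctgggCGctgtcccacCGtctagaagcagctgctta
Krt18: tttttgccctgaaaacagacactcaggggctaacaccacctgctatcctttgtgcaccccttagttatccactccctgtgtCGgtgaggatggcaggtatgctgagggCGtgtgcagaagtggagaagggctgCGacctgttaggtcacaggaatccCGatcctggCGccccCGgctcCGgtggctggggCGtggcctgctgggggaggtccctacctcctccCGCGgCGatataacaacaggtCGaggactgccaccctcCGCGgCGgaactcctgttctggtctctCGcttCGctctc
The Krt77 window held 3 CpG and the Krt76 window 4, against 6 in Krt8 and 17 in Krt18. A TATAAA was found in the windows of Krt76 and Krt8.

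Promoter windows were given for 36 of the 53 keratin genes, 37 windows in all, and for 17492 protein-coding genes with 21263 windows. Keratin windows had a median of 5 CpG (range 2 to 21), against 13 in protein-coding windows. TATAAA was present on either strand in 51.4% of keratin windows and 12.6% of protein-coding windows. The GC box letters GGGCGG were found in 5.41% of keratin windows, in Krt7 and Krt75, and in 46.2% of protein-coding windows. The AP-1 letters TGANTCA were found in 5.41% of keratin windows, all of them windows of Krt13, and in 6.99% of protein-coding windows. The TCF/LEF letters CTTTGA were found in 24.3% and 14.4%. All were searched on both strands, and none of these motifs is contained in another. The 16 windows of keratin genes marked in the irradiated list had a median of 4.5 CpG, and the 21 windows of the others had 5. A match of letters is a description of the sequence and not a site of binding.

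Among keratins of the stratified epithelia, 8 of 20 were marked in the irradiated list (40%) and 3 in the control list (15%). The shares over all protein-coding genes were 8.20% and 6.05%. On chromosome 15 the marked stratified keratins were 6 of 10 and 2 of 10, against 20.2% and 17.5% of its genes. On chromosome 11 they were 2 of 10 and 1 of 10, against 13.1% and 8.58%. Krt77, a keratin of the suprabasal epidermis (chr15:101858731-101869706), held 5 irradiated and 2 control peaks. Its strongest irradiated peak (chr15:101871598-101872273) had 21 reads over the lowest background of the list, 0.704 scaled reads, a fold of 7.41 (q = 1.12e-06). The control peak that overlapped it (chr15:101871566-101871885) had 14 reads over a background of 1.22, a fold of 4.36 (q = 0.0823). The summits of this pair lay 14 bp apart, 2109 and 2095 bp upstream of the start of Krt77.

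Another pair lay closer to the gene. The irradiated peak (chr15:101870995-101871382) had 17 reads, a fold of 6.11 (q = 0.000173), and the control peak (chr15:101871055-101871338) had 10 reads, a fold of 3.24 (q = 0.648), with summits 20 bp apart. Both pairs lay outside the gene itself. The stronger irradiated peak began 1892 bp from its end and thus just inside the limit of 2 kb. Just outside it, 3262 bp from the gene, the irradiated list held a further peak (chr15:101872968-101873394) with the same fold, 7.41, and 21 reads. The other 3 irradiated peaks of Krt77 had folds of 3.04 to 3.12, and the one over the promoter window (chr15:101869299-101869712) rested on 16 reads over a background of 2.16 scaled reads, with a q of 0.336.

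Krt1, the type II keratin of the suprabasal epidermis, had 6 irradiated peaks, the highest number of any keratin gene, and no control peak. Its strongest peak (chr15:101844978-101845691), across an end of the gene, had 16 reads, a fold of 4.68 (q = 0.0179). The other 5 had folds of 2.45 to 4.02 and a q of 0.0536 or more. Krt10, the type I partner of Krt1 on chromosome 11, had no peak within 2 kb in either list, and its nearest irradiated peak lay 2656 bp away with 8 reads and a fold of 3.19.

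Krt2, a keratin of the upper epidermis, had 1 irradiated peak of 14 reads, with a fold of 4.05 (q = 0.0624), and no control peak. Krt76, a keratin of the oral epithelium, had 3 irradiated peaks and 1 control peak. The strongest irradiated peak (chr15:101885471-101886302) had 15 reads and a fold of 3.79 (q = 0.0536), and the control peak overlapping it by 300 bp had 14 reads and a fold of 3.21 (q = 0.588). The summits of this pair lay 765 bp apart. Krt4, a keratin of the oesophagus and other inner stratified epithelia, had 3 irradiated peaks with folds of 3.04 to 4.05 and no control peak. Krt13, its type I partner on chromosome 11, had 1 irradiated peak with a fold of 2.73 (q = 0.537).

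Krt9, the type I keratin of footpad skin, held 2 irradiated peaks within the gene, the stronger with 13 reads, a fold of 3.94 (q = 0.0536). A control peak with 9 reads and a fold of 2.60 lay 3028 bp from Krt9. Krt78 had 1 irradiated peak with a fold of 2.92; it lay within the annotated span of the gene but 9069 bp upstream of the start given in the promoter table. Krt24, the only keratin gene marked in the control list alone, had 1 peak with 11 reads, a fold of 2.61 (q = 1). Outside the limit of 2 kb, 3684 bp from Krt24, lay an irradiated peak with 11 reads, a fold of 3.65 (q = 0.111). Krt5 and Krt14, the pair of the basal layer, and Krt6a, Krt6b, Krt16 and Krt17, induced in wounded skin, had no peak in either list. The nearest irradiated peak to Krt14 lay 3619 bp from it.

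**Figure D2:**
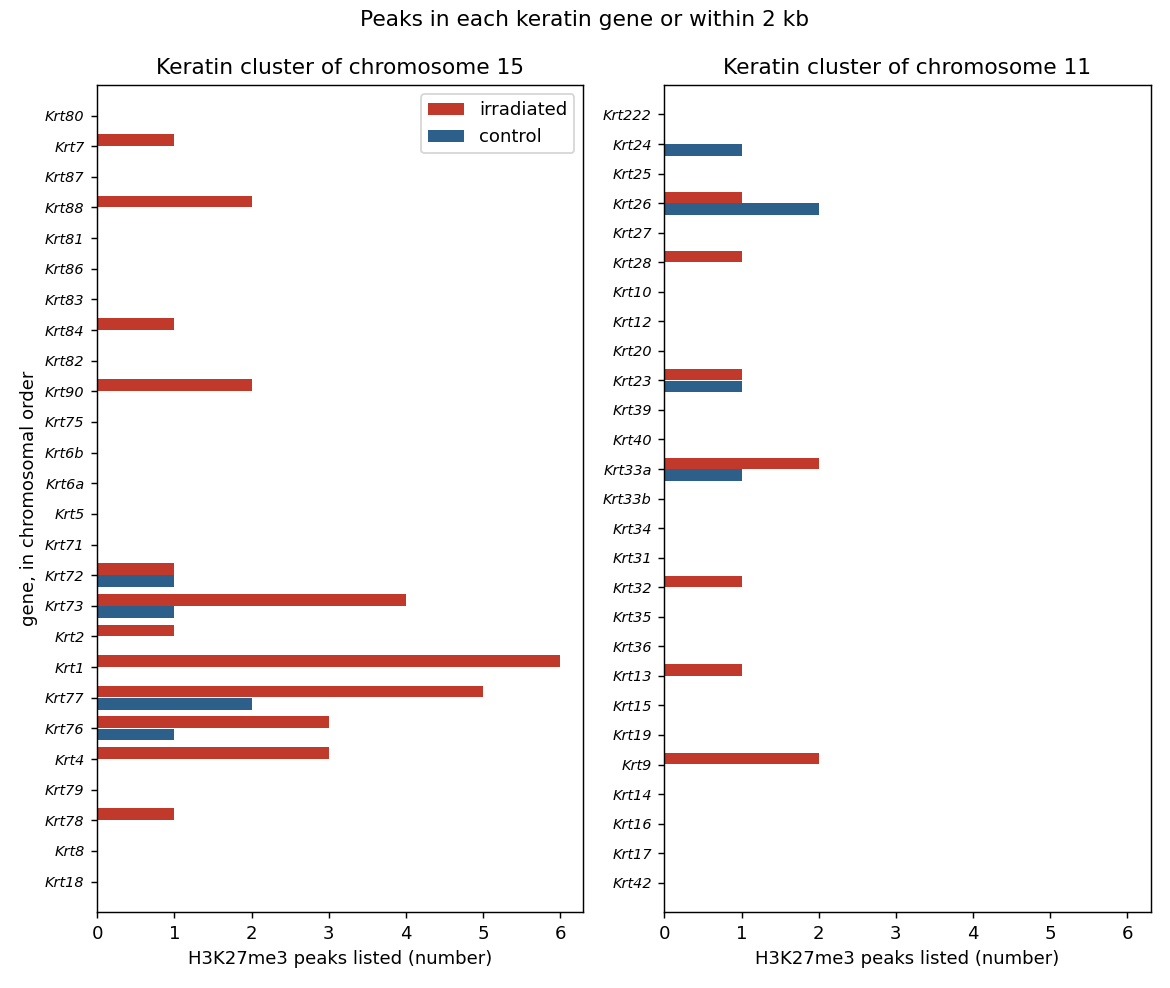
Number of H3K27me3 peaks in each keratin gene or within 2 kb of it, with genes in chromosomal order, irradiated bars in red above control bars in blue. On chromosome 15 the longest bars are those of Krt1 with 6 and Krt77 with 5 irradiated peaks, and on chromosome 11 no gene has more than 2 in either list.

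Among keratins of the inner root sheath and companion layer of the hair follicle, 4 of 8 were marked in the irradiated list. In the control list 3 were. These shares of 50% and 37.5% stood against 8.20% and 6.05% of all genes. On chromosome 15 they were 2 of 4 in each list, against 20.2% and 17.5% of its genes. On chromosome 11 they were 2 of 4 and 1 of 4, against 13.1% and 8.58%. Krt73 held 4 irradiated peaks and 1 control peak, at different sites. Its strongest irradiated peak (chr15:101802714-101803072), with its summit 543 bp upstream of the start, had 17 reads, a fold of 4.28 (q = 0.0189), and another, in the gene, had 15 reads and a q of 0.0457. The control peak of Krt73 had 17 reads over a background of 2.87, a fold of 2.98 (q = 0.503). Krt72, its neighbour, had 1 peak in each list, with 19 reads and a fold of 2.88 in the irradiated list and 17 reads and a fold of 2.80 in the control list, at sites that did not overlap.

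On chromosome 11, Krt26 had 1 irradiated peak and 2 control peaks and was the only keratin gene with more control than irradiated peaks among those marked in both lists. The irradiated peak (chr11:99327331-99328418) had 11 reads over a background of 1.00 scaled reads and a fold of 3.55, and the control peak that it overlapped had 12 reads over 1.70 and a fold of 3.12. Krt28 had an irradiated peak of 12 reads with a fold of 4.49 (q = 0.0536), and no control peak. A stronger irradiated peak of Krt28, with a fold of 4.81 (q = 0.0119), lay 3503 bp from the gene. In the control list a peak with a fold of 3.64 lay 3538 bp away. Krt25, Krt27, Krt71 and Krt75 had no peak within 2 kb.

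Among keratins of the hair shaft, 3 of 15 were marked in the irradiated list and 1 in the control list. These shares of 20% and 6.67% stood against 8.20% and 6.05% of all genes. On chromosome 15 they were 1 of 6 and 0 of 6, against 20.2% and 17.5% of its genes. On chromosome 11 they were 2 of 9 and 1 of 9, against 13.1% and 8.58%. Krt33a (chr11:100011199-100016212) had 2 irradiated peaks, the stronger with 14 reads, a fold of 4.91 (q = 0.0135), and 1 control peak with 10 reads, a fold of 3.37 (q = 0.487). All 3 lay in the flank of the gene, and none of them overlapped. Krt84, a type II hair keratin known in humans from the tongue papillae, had an irradiated peak beside the gene with 21 reads over a background of 2.24, a fold of 3.90 (q = 0.0280). Krt32 had an irradiated peak of 10 reads with a fold of 3.84, and the other 12 members of the group had none.

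Among keratins of simple epithelia, 2 of 7 were marked in the irradiated list and 1 in the control list. These shares of 28.6% and 14.3% stood against 8.20% and 6.05% of all genes. On chromosome 15 they were 1 of 4 and 0 of 4, against 20.2% and 17.5% of its genes. On chromosome 11 they were 1 of 3 in each list, against 13.1% and 8.58%. Krt23 had 1 irradiated peak in the gene (chr11:99481980-99482283), with 17 reads, a fold of 4.64 (q = 0.0117), the lowest q of the chromosome 11 keratin peaks. Its control peak lay elsewhere, 1525 bp upstream of the start, with 8 reads, a fold of 2.90 (q = 1). Krt7 had an irradiated peak of 15 reads over a background of 2.97, with a fold of 2.34 (q = 0.844), and no control peak. Krt8, Krt18, Krt19, Krt20 and Krt80 had no peak in either list. Of the 3 keratin genes outside these groups, Krt88 had 2 irradiated peaks with folds of 3.66 and 3.68, Krt90 had 2 with folds of 3.44 and 3.47, and Krt222 had none. None of these genes had a control peak.

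Counted once each, the keratin regions of chromosome 15 held 30 irradiated and 5 control peaks, a ratio of 6 (exact interval 2.31 to 19.8). The whole of chromosome 15 had a ratio of 1.26 and the genome 1.63. The keratin regions of chromosome 11 held 9 irradiated and 5 control peaks, a ratio of 1.80 (0.542 to 6.84), where the whole of chromosome 11 had 2.34. All protein-coding gene regions of chromosome 11 had 2.70, and the rest of its cluster had 7. No keratin peak was counted for more than 1 gene. Over both clusters, 4 of 39 irradiated peaks (10.3%, 2.87 to 24.2) and 4 of 10 control peaks (40%, 12.2 to 73.8) overlapped a peak of the other list. Those 4 were the pairs of Krt77, Krt76 and Krt26 given above. The same shares over all peaks are not given here, so these cannot be read as a trait of the keratins.

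Per length of DNA, the keratin gene regions of chromosome 15 held 84.2 irradiated and 14.0 control peaks per Mb. All protein-coding gene regions of the chromosome held 22.9 and 16.3. The rest of the cluster, between the keratin regions, held 139 irradiated and 21.1 control peaks per Mb, so the genes were not where the peaks were densest. In the 500 kb before the cluster there were 11 irradiated and 0 control peaks, and in the 500 kb after it 5 and 1. All 11 irradiated peaks before the cluster lay in 1 gene, Scn8a, or within 2 kb of it. On chromosome 11 the keratin regions held 30.9 irradiated and 17.2 control peaks per Mb, and all gene regions of the chromosome 16.3 and 6.05. The rest of the chromosome 11 cluster held 37.3 and 5.33.

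**Figure D3:**
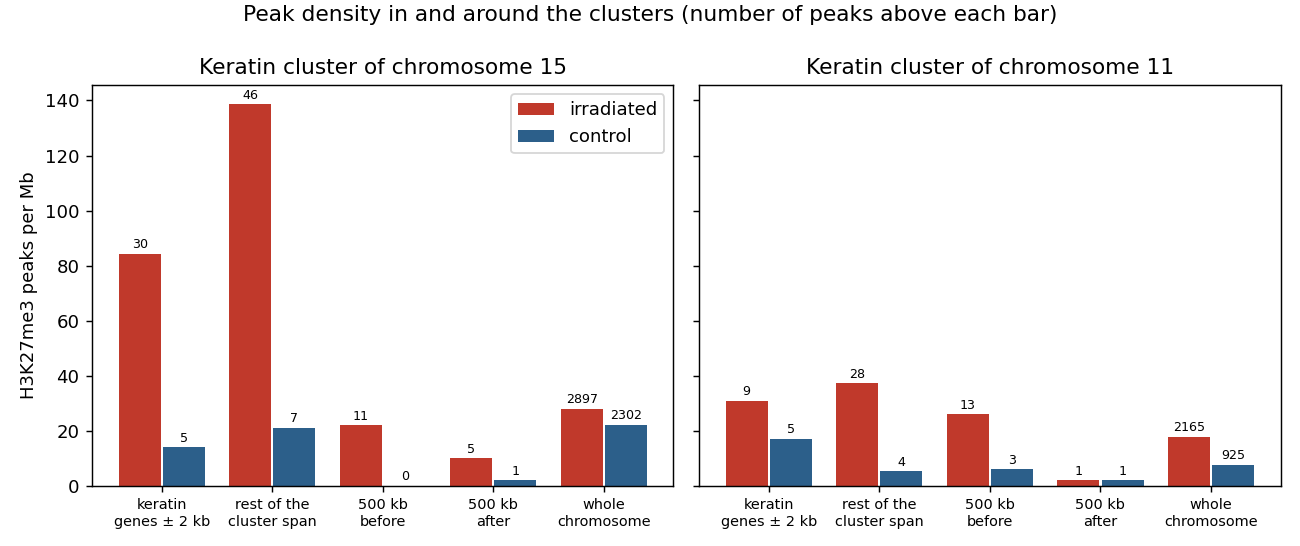
H3K27me3 peaks per Mb in keratin gene regions, in the rest of each cluster span, in the 500 kb on either side and on the whole chromosome, with irradiated bars in red left of control bars in blue and the number of peaks above each bar. On chromosome 15 the irradiated density is 84.2 in keratin regions and 139 in the rest of the span, against 27.9 on the whole chromosome.

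Within the chromosome 15 cluster the peaks were uneven. The stretch from Krt72 to Krt4, chosen after its values were seen, is 0.153 Mb long with 2 kb on either side and held 45 of the 76 irradiated and 9 of the 12 control peaks of the cluster. All 7 keratin genes of this stretch were marked in the irradiated list and 4 of them in the control list. Of the 15 genes before it, from Krt80 to Krt71, 4 were marked in the irradiated list and 0 in the control list. Of the 4 genes after it, from Krt79 to Krt18, 1 was marked in the irradiated list and 0 in the control list.

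The recovered background was raised at these peaks. Under the Poisson model assumed here, it is the local level, in scaled reads, against which the authors' caller set the ChIP reads. In keratin regions of chromosome 15 it had a median of 1.57 in the irradiated list (range 0.704 to 3), where 27 of 30 peaks (90.0%) lay at 1.5 times the lowest value or more. Of all irradiated peaks on chromosome 15, 32.8% did so, with a median of 0.972. In the control list 3 of 5 keratin peaks of chromosome 15 did so, against 18.03% of the chromosome. On chromosome 11 it was 5 of 9 irradiated and 2 of 5 control peaks, against 30.5% and 18.1% of the chromosome. Keratin peaks had more reads for their fold: on chromosome 15 the irradiated ones had a median of 15 reads and a fold of 3.46, against 12 reads and 3.82 on the whole chromosome.

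Without peaks of raised background, the chromosome 15 keratins held 3 irradiated and 2 control peaks, in 2 (7.69%) and 1 (3.85%) of the 26 genes. The irradiated ones were the 2 upstream peaks of Krt77 and 1 peak of Krt73 (chr15:101791867-101792584). The latter lay downstream, 720 bp from the gene, with 12 reads and a fold of 3.93 (q = 0.111). The peaks of Krt73 with a q of 0.0189 and 0.0457 were not among those left. Of the genes of chromosome 15, 13.4% had such a peak in the irradiated list and 14.2% in the control list, so the keratin share of the irradiated list, above that of the chromosome over all peaks, was below it here. On chromosome 11, 4 irradiated and 3 control peaks were left, in 4 (14.8%) and 3 (11.1%) genes, against 9.20% and 6.65% of the genes of the chromosome. By group, 1 of 20 stratified and 3 of 8 inner root sheath and companion layer keratins were left in the irradiated list. Of the hair shaft 2 of 15 were left there, and of simple epithelia 0 of 7. In the control list 1 gene of each group was left. The part of the raised background in these counts was not tested.

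**Figure D4:**
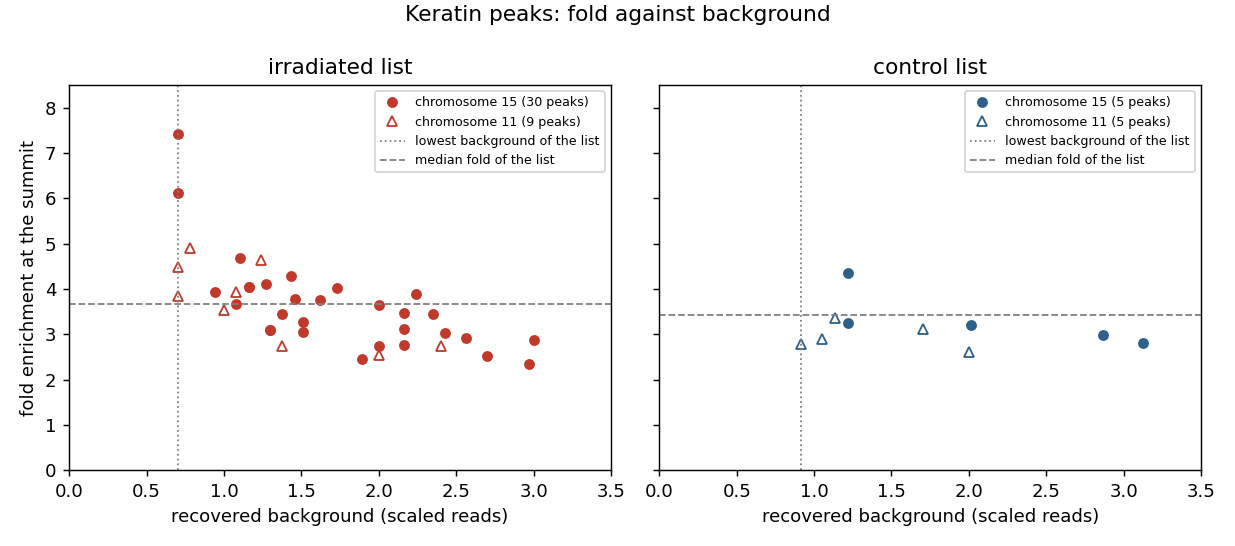
Fold enrichment at the summit against the recovered background in scaled reads for each keratin peak, in the irradiated list on the left and the control list on the right. Filled circles are chromosome 15 and open triangles chromosome 11, the dotted line is the lowest background of the list and the dashed line its median fold. The 2 irradiated peaks with folds of 6.11 and 7.41 lie on the dotted line, and most other circles lie to its right.

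The reads needed for a listed peak rise with the background. The fewest reads that reach the list were 8 in the irradiated and 7 in the control list at the lowest background, and 13 in both at 3 times that background. A keratin gene without a control peak may still carry the mark below this limit.

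The members of 5 groups of related genes were set beside the keratins. Of 56 keratin-associated protein genes, which encode the matrix of the hair shaft, 1 was marked in each list: Krtap5-1 on chromosome 7, with folds of 3.19 in the irradiated list and 4.40 for the stronger of 2 peaks in the control list. None of the 23 keratin-associated protein genes inside or within 500 kb of the chromosome 11 cluster was marked. Of 16 other intermediate filament genes, 1 was marked in the irradiated list and 0 in the control list: Nefh, which encodes the heavy neurofilament subunit, with a fold of 3.69 (q = 0.119). Vim and Gfap, the filament genes of mesenchymal and glial cells, had no peak. Of 49 cornified envelope genes, 1 was marked in the irradiated list, the transglutaminase gene Tgm5, and 2 in the control list, Tchhl1 and Tgm3. Their folds were 2.68 for Tgm5, 3.29 for Tchhl1 and 2.98 for Tgm3.

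Of 23 desmosome and hemidesmosome genes, which anchor keratin filaments to the membrane, 3 were marked in the irradiated list and 2 in the control list. Pkp1, which encodes plakophilin 1, held 5 irradiated and 2 control peaks, with folds of 4.60 and 3.66 for the strongest and q of 0.0135 and 0.385. Perp had 1 peak in each list, with folds of 3.25 in the irradiated and 3.43 in the control list, and Dsp, which encodes desmoplakin, had 1 irradiated peak with a fold of 3.19. Of 21 regulators of epidermis and hair, 5 were marked in the irradiated list and 3 in the control list. Cux1, which encodes a homeodomain factor, held 10 irradiated and 4 control peaks, with folds of 5.21 and 3.43 for the strongest and q of 0.00220 and 0.831. Barx2, a homeobox gene of the hair follicle, held 3 irradiated peaks and no control peak, and its strongest reached 4.42-fold (q = 0.0179). Foxn1, the nude gene, which acts in hair keratinization, held 2 irradiated peaks, of which the strongest reached 2.98-fold, and Ovol2 held 2 irradiated peaks and 1 control peak, with folds of 3.02 and 2.69 for the strongest. The shares of marked genes in the 5 groups were 1.79%, 6.25%, 2.04%, 13.0% and 23.8% in the irradiated list, against 8.20% of all genes, and 1.79%, 0%, 4.08%, 8.70% and 14.3% in the control list, against 6.05%.

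Of 33 non-keratin genes within 500 kb of the chromosome 15 cluster, 1 was marked in the irradiated list (3.03%) and 0 in the control list, where the shares over the chromosome were 20.2% and 17.5%. It was Scn8a, a neuronal sodium channel gene, with 11 irradiated peaks, of which the strongest reached 4.38-fold (q = 0.0147). They are the same 11 that were counted in the 500 kb before the cluster. Of 52 genes around the chromosome 11 cluster that encode neither keratins nor keratin-associated proteins, 2 were marked in the irradiated list (3.85%) and 0 in the control list, against 13.1% and 8.58% over the chromosome. They were Gm11565 and the tensin gene Tns4, each with 1 peak and with folds of 3.27 and 2.43.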

How the data were processed

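H3K27me3 was profiled in irradiated and control GL261 cells, with 1 library and 1 input library per condition. BWA, deepTools and build mm10 are listed, without versions, in the submitters' processing notes. No source used here names the peak caller or its settings. The authors deposited 1 peak list per H3K27me3 library. In it, the deposited start, end and summit are positions (other values, in bp), and the deposited score equals 10 times the −log10 p, cut to a whole number. As deposited, the ratio at the summit is a fold over local background. The −log10 of p and of q (p-value and q-value) are as deposited by the authors and were used to rank and filter peaks within a list, and the largest p was 0.00499 in the irradiated and 0.00495 in the control list. Depth in library totals is unknown.

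Further summits of an interval, 679 irradiated and 215 control lines, were merged, keeping the lowest p. Whole reads and a background were recovered for 100% of lines in both lists, within 0.01 reads, from a Poisson model with a pseudocount of 1. In it 1 ChIP read counted as 0.554 scaled reads in the irradiated and 0.620 in the control list, and the lowest background was 0.704 and 0.918. The recovery was checked only on lists simulated from this same model, which cannot show that the authors' caller used it. More than 1 solution fitted 0.936% of irradiated and 0.0794% of control lines.

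Genes and promoters came from RefSeq tables of GRCm38.p6, the assembly of mm10. Overlap was at least 1 bp. For shares, 95% intervals are exact (Clopper-Pearson). The interval of a ratio was converted from that of the binomial share. No test between conditions was possible. The members, gene lists and groups were chosen with earlier results of these data known. The rule for naming genes took the 10 with the lowest q in each cluster, all with a peak in both lists, the 4 with most peaks, Krt8, Krt18, Krt5, Krt14, Krt1, Krt10, Krt7, Krt17 and Krt19, and up to 4 per related group; other keratin genes are named to complete counts. Python 3.11.15, scipy 1.17.1 and pandas 2.3.3 were used.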

Additional observations from a re-analysis of the deposited data

How the results depend on the processing

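The alternatives were other strengths of peaks, windows, merging, overlap, cluster bounds and backgrounds. Where a ratio could be formed, keratin peaks were more numerous in the irradiated than in the control list in both clusters. With equal numbers of peaks, 5 related genes were marked in the irradiated and 8 in the control list, a ratio of 0.625. Over all peaks they were 11 and 8, a ratio of 1.38. The share over all genes with equal numbers of peaks is not given here. This turn therefore cannot be read as a trait of the related genes, and its cause was not tested. Merging peaks within 1000 bp, counting further summits apart, sharing within 1000 bp and cluster bounds wider by 100 kb moved no count by more than 1.5 times. No paired analysis was possible because each condition had 1 library. A listed peak rested on at least 8 reads in the irradiated and 7 in the control list. Depth in library totals is unknown, and its part in the counts was not tested.

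A q of at most 0.05 or a −log10 p of at least 5 moved most counts, and equal numbers of peaks moved fewer. The cause of these moves was not tested. With a q of at most 0.05, chromosome 15 held 6 irradiated and 0 control keratin peaks, in 4 and 0 genes, and 16 and 2 peaks in the cluster. Chromosome 11 held 2 and 0 peaks, in 2 and 0 genes, and 7 and 0 peaks in the cluster. No keratin peak was shared (0 in either list), and 3 and 0 related genes were marked. With a −log10 p of at least 5, chromosome 15 held 6 and 1 peaks, in 4 and 1 genes, with 19 and 5 in the cluster. Chromosome 11 held 3 and 0 peaks, in 3 and 0 genes, with 10 and 0 in the cluster; 1 peak of each list was shared, and 3 and 1 related genes were marked, a ratio of 3. With equal numbers of peaks, chromosome 15 held 19 irradiated peaks against 5 control peaks, a ratio of 3.80, with 46 irradiated peaks in the cluster. Chromosome 11 held 6 irradiated peaks, a ratio of 1.20, with 23 in the cluster. Shares over all genes are not given here at a −log10 p of at least 5 or with equal numbers of peaks. The gene counts and ratios at these settings therefore cannot be read as a trait of the keratins or the related genes. For the related genes the same holds at a q of at most 0.05 and without peaks of raised background.

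Without peaks of raised background, chromosome 15 held 3 irradiated and 2 control keratin peaks, a ratio of 1.5, in 2 and 1 genes, with 26 and 7 in the cluster. Chromosome 11 held 4 and 3 peaks, a ratio of 1.33, in 4 and 3 genes, with 24 and 4 in the cluster. Of these, 2 in each list were shared, and 7 related genes were marked in the irradiated and 6 in the control list. The share of chromosome 15 keratin genes marked in the irradiated list was then 7.69%, below the 13.4% of the chromosome, where over all peaks it was 46.2%, above 20.2%. The cause was not tested.

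Without a window around the genes, chromosome 15 held 17 irradiated and 3 control peaks in 9 irradiated and 3 control genes. Chromosome 11 held 3 and 1 peaks, a ratio of 3, in 2 and 1 genes, and 1 peak of each list was shared. With a window of 500 bp, chromosome 11 held 5 and 2 peaks in 4 and 2 genes, chromosome 15 held 3 control peaks, and 2 irradiated and 1 control peaks were shared. With a window of 5000 bp, chromosome 11 held 17 irradiated peaks, and 13 of its keratin genes were marked in the irradiated and 7 in the control list. A wider window can mark more genes of any kind. The shares over all genes given above hold for 2 kb only and cannot be set against counts at other windows. With a reciprocal overlap of 50%, 1 keratin peak of each list was shared.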
